A study of Homo sapiens with 27 samples.

Results

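Keratins are the paired intermediate filament proteins of epithelial cells. A filament forms only when an acidic type I chain pairs with a basic type II chain, and most type I genes lie in a cluster on chromosome 17 while the type II genes lie on chromosome 12. Simple epithelia carry KRT8 with KRT18 and KRT19, the basal layer of stratified epithelia carries KRT5 with KRT14 and KRT15, dividing or injured epidermis adds KRT6 with KRT16 and KRT17, and other pairs mark suprabasal, mucosal, and hair cells. The neural retina is not built on keratins, and neurons and glia use neurofilaments, nestin, vimentin, or GFAP instead, whereas pluripotent cells, pigment epithelium, and surface ectoderm are known to carry simple keratins.

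The keratin genes were taken as the protein-coding genes whose symbol is KRT followed by a number and at most 1 letter. Of 55 such genes in the annotation, 46 had a row among the 44852 rows of the count table, and KRT84, KRT82, KRT6B, KRT6C, KRT73, KRT76, KRT25, KRT26, and KRT37 were not analysed here. The 46 genes comprised 25 of type I, 20 of type II, and KRT222, which is keratin-like, with 25 on chromosome 17 and 21 on chromosome 12. By the layer in which they are known, 5 are simple keratins, 3 are basal, 3 are wound and activation keratins, 14 are suprabasal or mucosal, and 20 belong to hair and its root sheath.

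Bulk RNA-seq had been performed on H1, a human embryonic stem cell line, at passages 10 to 25, grown on 3 laminin matrices and collected at days 2, 22, and 32, with 3 libraries in each of the 9 groups. The matrices are called LN523, LN323, and LN521 after their leading isoform, because the sources differ on the rest: the study's text pairs LN523 and LN323 with LN521 and uses LN521 alone, while the labels pair LN523 and LN521 with LN323 and use LN323 alone. Day 2 cells were labelled undifferentiated and days 22 and 32 photoreceptor progenitors (the sample titles say days 0, 20, and 30), and all differentiated groups had received the inhibitors CKI-7 and SB431542 and then a medium with BDNF, CNTF, retinoic acid, and DAPT. All 27 libraries came from this single line, and replicate number equalled sequencing lane in every group. Nothing states that replicates were separate cultures, so p-values measure the spread between these libraries. On LN523 at day 32, the highest library exceeded the lowest 173-fold for KRT15, 5.82-fold for KRT19, and 1.39-fold for KRT10. For KRT15, at 20, 2716, and 387 counts in replicates 1 to 3, this is beyond counting error. How much of the spread is technical was not tested. Total counts ran from 25620624 to 47340990 per library (median 39862487).

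The label of photoreceptor progenitors was compared with marker genes. The summed level of 7 pluripotency markers was 9550 to 11300 TPM (transcript abundance scaled for gene length and library size) at day 2 and 42.9 to 128 TPM at day 32, and that of 6 neural retina progenitor markers was 2.21 to 5.62 TPM at day 2 and 680 to 2210 TPM at day 32. The 8 photoreceptor progenitor markers summed to 67.6 to 192 TPM at day 2, 19.7 to 88.4 TPM at day 22, and 28.6 to 266 TPM at day 32, ranges that overlap between day 2 and both later days. Gene by gene, 5, 4, and 4 of the 8 rose and 2 fell on LN523, LN323, and LN521 by day 22 in the edgeR test, and 4, 0, and 3 rose from day 22 to day 32. Of all genes, 11.5%, 11.8%, and 10.8% rose and 10.2%, 10.9%, and 8.09% fell by day 22. From day 22 to day 32, 0.343%, 0.0357%, and 0.196% of all genes rose. Among markers of other cell types, the sum from day 2 to day 32 went from 144 to 267 TPM to 790 to 2510 TPM for pigment epithelium, from 146 to 246 TPM to 477 to 6550 TPM for mesenchyme and neural crest, and from 13.2 to 36.1 TPM to 181 to 789 TPM for amnion and trophoblast, without overlap. Lens markers were at 19.3 to 36.8 TPM at day 2 and 14.8 to 1040 TPM at day 32, with LN521 replicates 1 and 2 (14.8 and 32.0 TPM) not above day 2. In such bulk samples, fewer cells of a type and less RNA per cell cannot be told apart.

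At day 2 the keratins were almost wholly those of simple epithelium. Together the 46 genes gave 748 to 1040 TPM per library at day 2, and 98.0% to 98.8% of this was simple keratin, with KRT19 at 28.4% to 46.2%, KRT8 at 29.6% to 35.7%, and KRT18 at 19.0% to 36.8%. The total was 1330 to 2630 TPM at day 22, above every day 2 library, with a simple share of 94.3% to 98.3%. At day 32 it spread from 729 to 3070 TPM, and the simple share was 71.9% to 86.4%, below every earlier library. KRT17 held at most 0.119% of keratin TPM at day 2, 0.398% to 2.29% at day 22, and 9.84% to 23.0% at day 32, where it made up 72.4% to 83.9% of what was not simple keratin.

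**Figure D1:**
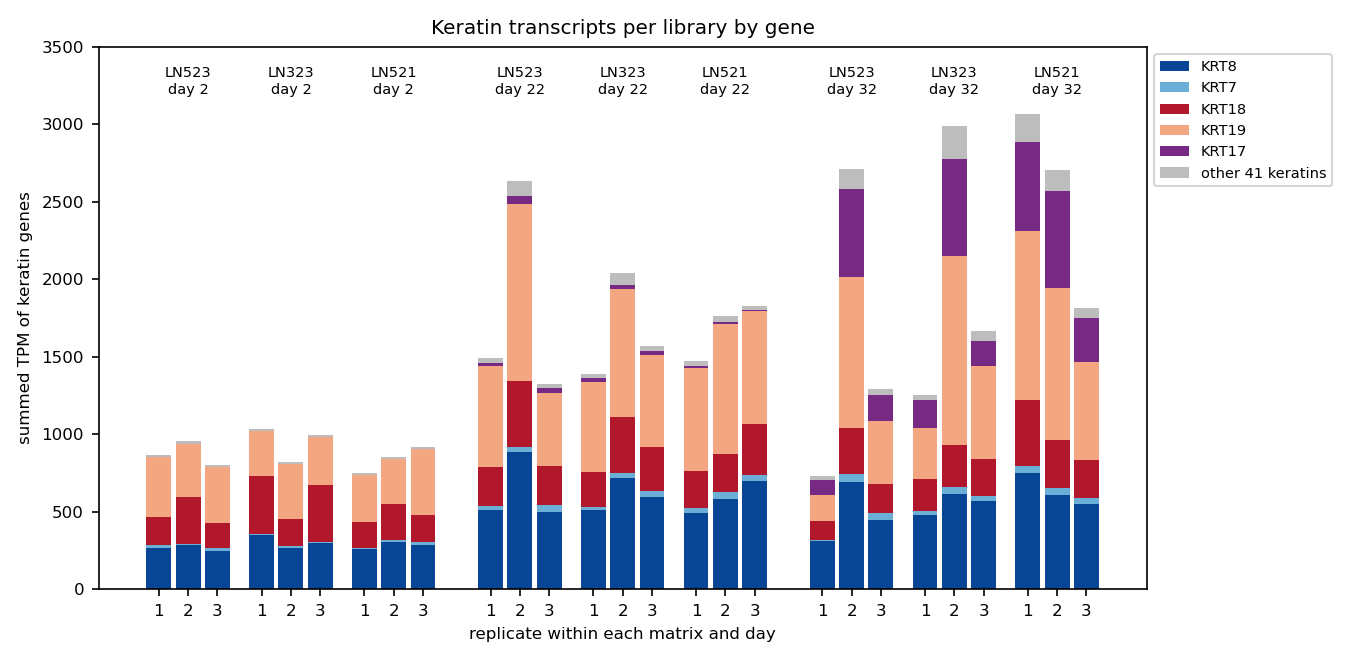
Stacked bars give the summed TPM of the 46 keratin genes in each of the 27 libraries, split into KRT8, KRT7, KRT18, KRT19, KRT17, and the other 41 genes, in the order of day, matrix, and replicate. KRT8, KRT18, and KRT19 fill nearly the whole bar at days 2 and 22, and a KRT17 layer of 9.84% to 23.0% stands in every day 32 bar.

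Filaments take up equal amounts of the 2 chain types, but the summed TPM of the 2 types was not equal. TPM depends on the gene lengths used to scale it. The ratios below were not computed on counts without length scaling, so an excess of type I transcripts is not established. Type I exceeded type II TPM in 27 of 27 libraries, with a ratio of 1.69 to 2.27 at day 2, 1.42 to 1.79 at day 22, and 1.26 to 3.06 at day 32. The lowest ratio, 1.26, was in LN523 replicate 1 at day 32 and the highest, 3.06, in LN323 replicate 2 at day 32. Within the simple pair, KRT8 to KRT18 was 0.814 to 1.62 at day 2, 1.96 to 2.37 at day 22, and 1.76 to 2.48 at day 32, so the day 2 libraries did not overlap the later ones.

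Of the 46 genes, 14 reached a mean of 1 CPM (counts scaled to library size by TMM, not to gene length) in a group: KRT8, KRT18, KRT19, KRT7, KRT5, KRT15, KRT17, KRT6A, KRT10, KRT4, KRT13, KRT23, KRT80, and KRT40. The other 32 stayed at or under a group mean of 0.923 CPM, reached by the hair keratin KRT81 on LN521 at day 32, and 17 of them were below 0.1 CPM in every group. Among these low genes were textbook partners of named ones: KRT14, the type I partner of KRT5, was at most at a mean of 0.533 CPM, and KRT16, the type I partner of KRT6, whose 5 pseudogene rows held 75.1% as many counts as the gene, at 0.53 CPM. Both KRT14 and KRT16 have transcript stretches shared with other genes, as given below, so their low counts are uncertain. KRT1, the type II partner of KRT10 in suprabasal epidermis, did not exceed 0.073 CPM in any group mean. In all, 18 members had 0 counts in each of the 9 day 2 libraries, and 7 members had counts in all 27 libraries.

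**Figure D2:**
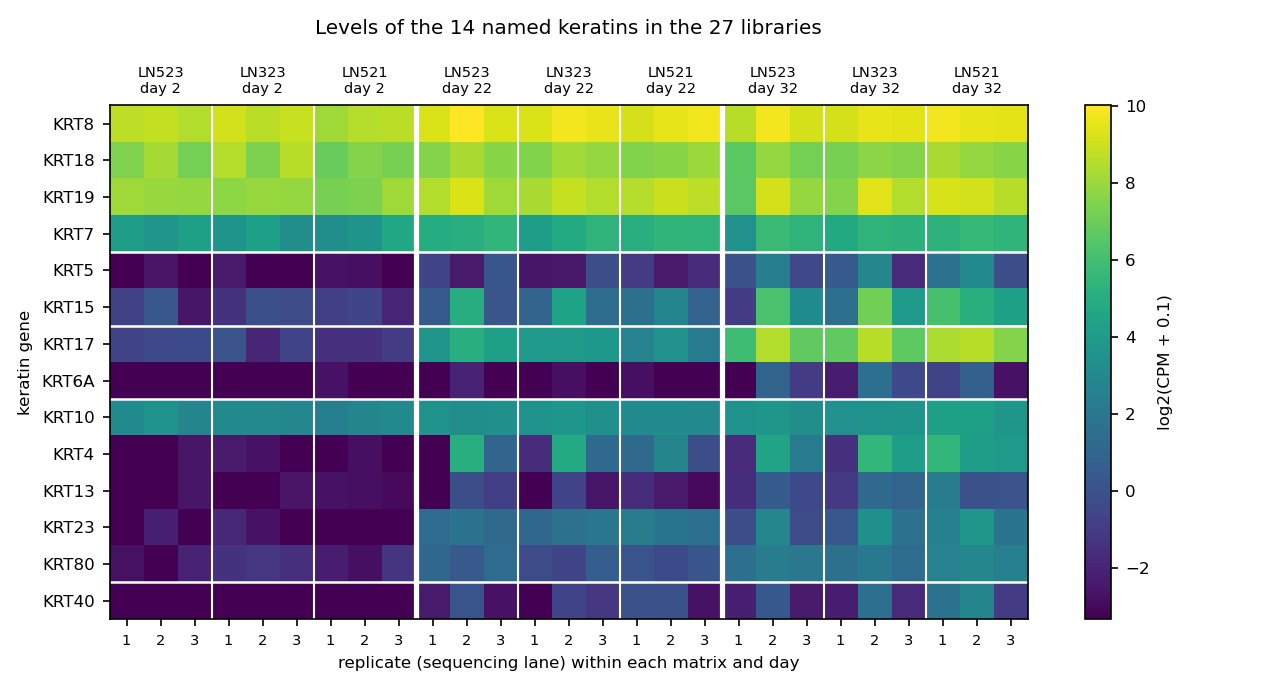
The colour gives log2(CPM + 0.1) of the 14 named keratins (rows, by class: simple, basal, wound, suprabasal and mucosal, hair) in the 27 libraries (columns, by day, matrix, and replicate). The 4 simple keratins and KRT10 are present throughout, KRT17 brightens from day 2 to day 22 to day 32 in every matrix, and replicate 2 is the brightest column for most rows on LN523 and LN323 at day 32.

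Part of this family cannot be assigned without doubt. Stretches of 150 bases or more at 95% identity covered 49.2% of the KRT8 transcript (in pseudogenes such as KRT8P3), 56.0% of KRT18 (in KRT18P11), 54.4% of KRT17 (in KRT17P1 and KRT17P3 among others), and 99.8% of KRT6A (in KRT6B, KRT6C, and KRT5), against 0% for KRT19, KRT15, KRT4, KRT7, KRT23, and KRT10. Of the low partners, such stretches covered 73.0% of KRT14 (in KRT16P5 and KRT16 among others) and 35.6% of KRT16 (in KRT16P3 among others). The pseudogene rows of KRT8, KRT18, and KRT17 held few counts, 2.88% of the gene's count for KRT8 over 40 rows, 2.3% for KRT18 over 53 rows, and 0.16% for KRT17 over 7 rows. These row counts cannot show how many reads matching several places were dropped or misplaced. On opposite strands, KRT8 and KRT18 overlap in 7.6% and 17.1% of their exonic length, and the strand setting of the counting is not given in the sources used here, so reads in that stretch cannot be told apart.

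Promoters were available for few of the named genes. The RefSeq table (GRCh38.p14) held 31 entries for 27 of the 46 members, among them 5 of the 14 named ones. Shown are the last 80 bases before the start site of KRT4, a mucosal keratin that rose on all 3 matrices, of KRT5, the basal keratin, and of KRT10, which passed no edgeR test, each read on the minus strand, with TATAAA in capitals where it occurs. KRT4 is at chr12:52814117-52814196, KRT5 at chr12:52520395-52520474, and KRT10 at chr17:40822615-40822694.
KRT4: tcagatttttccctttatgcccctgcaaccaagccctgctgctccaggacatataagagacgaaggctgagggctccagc
KRT5: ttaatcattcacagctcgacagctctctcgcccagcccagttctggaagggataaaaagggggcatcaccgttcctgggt
KRT10: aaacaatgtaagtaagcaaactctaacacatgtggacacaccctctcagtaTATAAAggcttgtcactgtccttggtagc
Of these stretches, KRT10's alone held the exact hexamer TATAAA, at -29 from the start site. Near matches to the hexamer were not searched, so its absence does not show that KRT4 and KRT5 lack such an element. Over the 250 bases before the start and on either strand, TATAAA was found in 14 of the 31 keratin entries, against 10.7% of all 35116 promoters in the table. GGGCGG was found in 3 of 31 (42.6% of all), GCCNNNGGC in 4 of 31 (19.8% of all), and TGANTCA in 0 of 31 (6.57% of all).

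The change from the undifferentiated state to day 22 was asked first. Members of the simple, basal, wound, and mucosal classes were called higher, as was 1 of the 20 hair keratins, and none was called lower. By edgeR's quasi-likelihood test over all genes, 10 of the 46 members rose and 0 fell on LN523, where 11.5% of all 44852 tested genes rose and 10.2% fell. On LN323, 9 rose and 0 fell (11.8% and 10.9% of all genes), and on LN521 9 rose and 0 fell (10.8% and 8.09% of all genes). Only 23 of the 46 members had a count at day 2 on each matrix, and a member without one could not be called lower. The absence of falls is therefore partly set by the low day 2 level. Over all 46 members the median fitted log2 value was 1.48 on LN523, 0.59 on LN323, and 0.41 on LN521, against 0.02, 0.02, and -0.02 over all genes. These medians include members at 0 in a group, whose fitted value is no measured fold. With 14, 10, and 8 such members at their bound, the medians were 1.12, 1.52, and 1.15 over the 31, 27, and 27 members with more than 3 counts in either group, a selection that keeps a gene through its higher group and so has no counterpart over all genes. The 3 comparisons use separate libraries but come from 1 fit, which shares its estimate of the spread and its lane terms. In all of them 8 members rose: KRT8, KRT7, KRT15, KRT17, KRT4, KRT23, KRT80, and KRT40. The share of all genes that rose on all 3 matrices was not computed, so this number has no background.

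The simple keratins changed little in proportion to their level. KRT8 (ENSG00000170421, chromosome 12, 52897187 to 52949954 in GRCh38), the type II chain of simple epithelia, was at 407, 437, and 360 CPM in the 3 replicates on LN523 at day 2 and at 605, 1040, and 624 CPM at day 22. It was at 547, 396, and 485 CPM and then 617, 875, and 766 CPM on LN323, and at 283, 373, and 394 CPM and then 583, 733, and 850 CPM on LN521. The days did not overlap on any matrix. KRT8 rose by a log2 fold change of 0.89 on LN523 (standard error 0.20, edgeR adjusted p = 0.000561), 0.62 on LN323 (standard error 0.20, adjusted p = 0.0168), and 1.05 on LN521 (standard error 0.20, adjusted p = 6.25e-05). On LN323 the call was lost without replicate 2 (log2 value 0.41, adjusted p = 0.24) and without replicate 3 (0.61, adjusted p = 0.133).

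KRT7, a type II chain of glandular and transitional epithelia that is also carried by trophoblast and amnion, was lower in level but rose slightly more. Its mean went from 16.2 ± 3.61 to 36.3 ± 7.01 CPM on LN523, from 13.1 ± 4.51 to 28.8 ± 11.4 CPM on LN323, and from 15.4 ± 7.96 to 38.6 ± 4.66 CPM on LN521 (SD, n = 3). The days overlapped on LN323 only, and the log2 fold changes were 1.12, 1.07, and 1.39 (standard error 0.31 each, edgeR adjusted p = 0.0052, 0.00785, and 0.000588). Leaving out replicate 3 ended the call on LN523 (1.07, adjusted p = 0.0569) and on LN323 (0.62, adjusted p = 0.383).

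The type I simple keratins did not move in the same measure. KRT19 (ENSG00000171345, chromosome 17, 41523617 to 41528308), the smallest keratin, rose on LN521 from 154, 165, and 275 CPM to 369, 492, and 415 CPM (log2 fold change 1.06, standard error 0.29, adjusted p = 0.00483). Its fold changes on LN523 (0.63, adjusted p = 0.126) and LN323 (0.69, adjusted p = 0.0795) did not pass the edgeR test, although the days did not overlap on either matrix. KRT18 (ENSG00000111057, chromosome 12, 52948871 to 52952906), the partner of KRT8 and the one type I gene outside the chromosome 17 cluster, had log2 fold changes of 0.20, -0.47, and 0.49, none of which passed (adjusted p = 0.725, 0.213, and 0.204). KRT20, a keratin of gut epithelium, stayed at or under 0.0877 CPM in all group means.

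Of the basal keratins, KRT15 (ENSG00000171346, chromosome 17, 41513745 to 41522529) was called on all matrices and KRT5 on LN523 and LN323. KRT15 was at 0.0772 to 1.11 CPM over the 9 day 2 libraries. At day 22 it was at 1.25, 31.8, and 1.06 CPM on LN523, at 1.94, 21.1, and 2.55 CPM on LN323, and at 2.97, 6.35, and 1.76 CPM on LN521. Replicate 2 held the highest value on each matrix, and on LN523 the other replicates lay within or close to the day 2 range. The log2 fold changes were 3.34 (standard error 0.81, adjusted p = 0.00122), 2.93 (0.78, adjusted p = 0.00316), and 3.20 (0.82, adjusted p = 0.00244), and on LN521 the call was lost without replicate 3 (3.12, adjusted p = 0.0509).

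KRT5, the type II chain of basal keratinocytes, was far lower. It had 2 counts over the 3 LN523 libraries of day 2 and 68 at day 22, a ratio of 27.4 with a 95% exact interval of 7.29 to 231 that covers counting error only. Its edgeR log2 fold changes were 5.11 on LN523 (standard error 1.33, adjusted p = 0.00251), 3.44 on LN323 (1.23, adjusted p = 0.0347), and 2.97 on LN521 (1.22, adjusted p = 0.0851, not called). Without replicate 3, the value was 3.63 on LN523 (adjusted p = 0.0558) and 0.61 on LN323 (adjusted p = 0.961), and the LN323 call was also lost without lane as a block (3.16, adjusted p = 0.0519). KRT14 was not called by edgeR in any comparison, with day 22 means of 0.0662, 0.107, and 0.0852 CPM on LN523, LN323, and LN521.

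KRT17 (ENSG00000128422, chromosome 17, 41619442 to 41624842), a type I chain of hair follicles and of activated or embryonic epidermis, had the smallest p of the 46 on every matrix. Its day 2 libraries lay between 0.164 and 0.963 CPM. At day 22 it was at 12.5, 32.7, and 19.3 CPM on LN523, at 14.9, 14.3, and 13.6 CPM on LN323, and at 5.90, 10.6, and 4.50 CPM on LN521. No day 22 library overlapped day 2, and the log2 fold changes were 4.98 (standard error 0.44, edgeR adjusted p = 2.36e-13), 4.59 (0.43, adjusted p = 1.83e-12), and 4.33 (0.45, adjusted p = 5.45e-11).

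**Figure D3:**
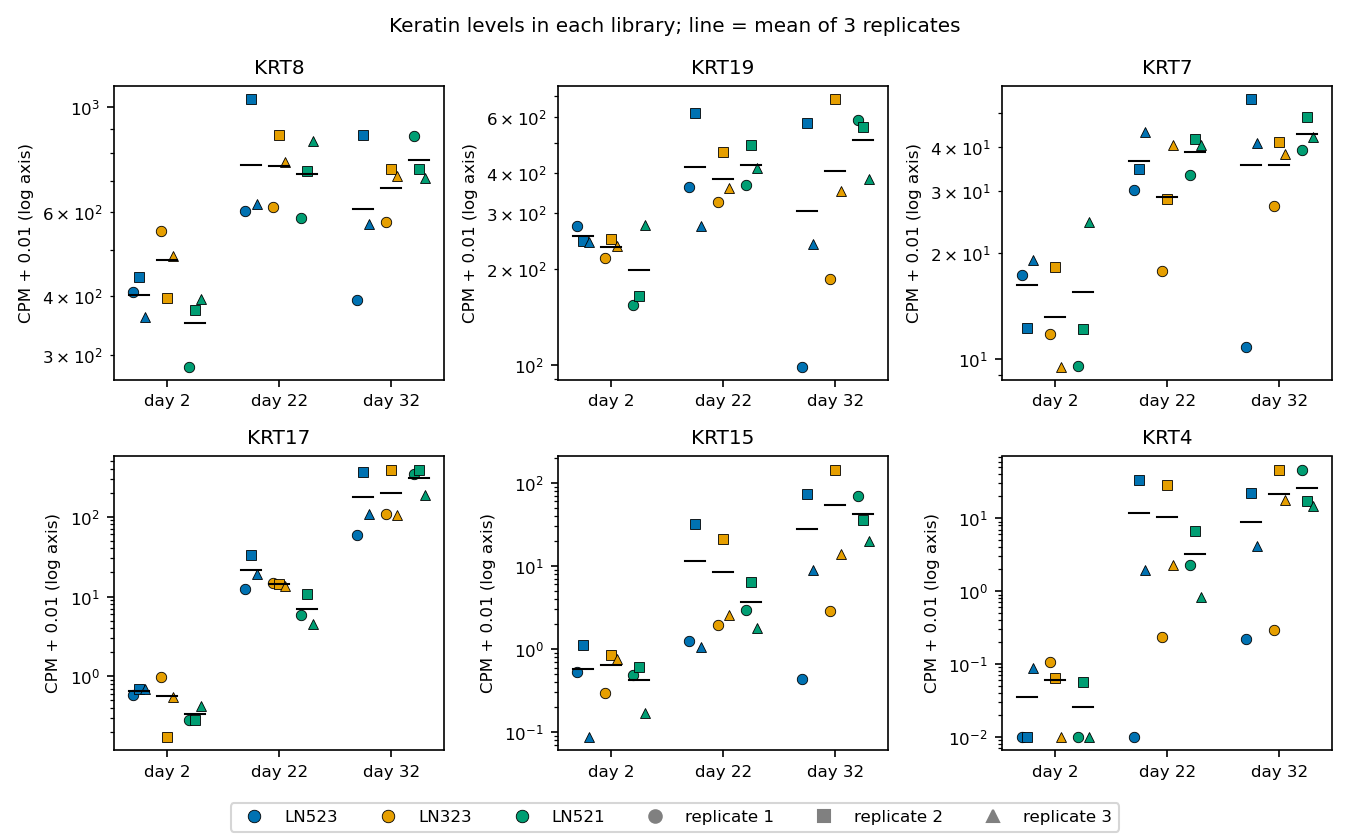
CPM + 0.01 on a log axis for KRT8, KRT19, KRT7, KRT17, KRT15, and KRT4 in each library, by day, with colours for the matrix, shapes for the replicate, and a line at the mean of 3 replicates. KRT17 rises at each step without overlap between days, whereas KRT15 and KRT4 at day 32 run from 0.427 to 144 CPM and from 0.213 to 46.1 CPM over the 9 libraries.

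Among the suprabasal and mucosal keratins, 4 of 14 rose on LN523, and 3 of 14 on LN323 and on LN521, against 11.5%, 11.8%, and 10.8% of all genes. KRT4 (ENSG00000170477, chromosome 12, 52806549 to 52814116), the type II keratin of oral and oesophageal mucosa, was at 0, 33.9, and 1.92 CPM on LN523 at day 22, at 0.228, 28.8, and 2.25 CPM on LN323, and at 2.31, 6.63, and 0.824 CPM on LN521. At day 2 it did not exceed 0.0963 CPM in any library. Again replicate 2 was the highest, and the LN523 groups overlapped at 0 in replicate 1. The count ratio to day 2 was 600 on LN523 (95% exact interval 166 to 4960) and 196 on LN521 (54.0 to 1630), with 2 counts over the day 2 libraries in each case, and on LN323, with 6 counts at day 2, edgeR gave a log2 value of 6.44 ± 1.38 (standard error) at an adjusted p of 0.000232. Of the 1491 counts on LN523 at day 22, 1424 were in replicate 2, and the fitted log2 value went from 7.86 to 4.16 without that replicate and to 11.45 without replicate 3. On LN323 it was 3.80 without replicate 2 and 8.65 without replicate 1, and all of these stayed called.

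KRT23, a type I keratin of inducible expression in epithelia, was unlike KRT4 in being even across replicates at day 22. By day 32 replicate 2 was its highest on each matrix, 9.53-fold, 9.07-fold, and 3.87-fold above the lowest on LN523, LN323, and LN521. Its day 22 values were 2.41, 3.26, and 2.32 CPM on LN523, 2.17, 3.03, and 3.68 CPM on LN323, and 4.97, 3.60, and 2.86 CPM on LN521. On LN521 it had 0 counts in the 3 day 2 libraries, so it was at least 151-fold higher at day 22 (against 3 counts over the group), and its log2 fold changes were 6.21 on LN523 (standard error 0.88, edgeR adjusted p = 1.72e-07) and 5.14 on LN323 (0.79, adjusted p = 8.56e-07). KRT80, a widely expressed type II keratin linked to desmosomes, rose by 4.86, 1.62, and 2.63 on LN523, LN323, and LN521 (adjusted p = 2.1e-07, 0.037, and 0.000925), and its LN323 call was lost without replicate 1 (1.74, adjusted p = 0.0904) or replicate 3 (1.11, adjusted p = 0.398).

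KRT13, the type I partner of KRT4 in mucosa, was called on LN523 alone, at 51 counts against 2 (ratio 20.5, 95% exact interval 5.40 to 174, edgeR adjusted p = 0.0294), and not without replicate 2 (adjusted p = 0.234), with the stricter filter (0.0611), or with only the groups compared (0.167). KRT10, the type I keratin of differentiated epidermis, stayed between 5.29 and 12.7 CPM in all 18 libraries of days 2 and 22, with log2 fold changes of 0.28, 0.56, and 0.33 that did not pass the edgeR test (adjusted p = 0.653, 0.206, and 0.571), although DESeq2 called it on LN323. Of the 20 hair keratins, KRT40 alone was called on each matrix, where 11.5%, 11.8%, and 10.8% of all genes rose. It had 0 counts in all 9 day 2 libraries and was at least 12.9-fold higher on LN523, 12.5-fold higher on LN323, and 25.4-fold higher on LN521 at day 22. On LN523 that call was lost without replicate 2 (edgeR adjusted p = 0.153) and with only the groups compared in the fit (adjusted p = 0.0529), which also ended it on LN323 (adjusted p = 0.0904).

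From day 22 to day 32 the keratin that rose throughout was KRT17. It was the 1 member called higher on LN523, where 0.343% of all genes rose and 0.0379% fell, and the 1 called higher on LN323 (0.0357% and 0.00669% of all genes). On LN521, 4 members were called higher and 0 lower (0.196% and 0.0713% of all genes). The median fitted log2 value over all 46 members was 0.00, 0.28, and 1.13 on LN523, LN323, and LN521, against 0.00 over all genes, and it was 0.11, 0.65, and 1.14 over the 34, 30, and 32 members selected by counts as above.

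KRT17 reached 59.6, 364, and 108 CPM on LN523, 107, 379, and 105 CPM on LN323, and 338, 385, and 185 CPM on LN521 at day 32. No day 32 library overlapped its day 22 group, and replicate 2 was nearly the same on the 3 matrices, while replicates 1 and 3 were lower on LN523 and LN323 than on LN521. The log2 fold changes were 2.89 on LN523 (standard error 0.37, edgeR adjusted p = 4.86e-06), 3.55 on LN323 (0.38, adjusted p = 8.71e-08), and 5.49 on LN521 (0.42, adjusted p = 3.18e-13). The LN523 call missed the threshold when low counts were filtered more strictly (log2 fold change 2.89, adjusted p = 0.0538).

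On LN521 the others called were KRT15, KRT4, and KRT80. KRT15 reached 70.2, 36.0, and 20.1 CPM there (log2 fold change 4.06, standard error 0.75, edgeR adjusted p = 0.00265), and KRT4 reached 45.4, 17.0, and 14.9 CPM (4.14, standard error 0.95, adjusted p = 0.0325). KRT80 reached 6.03, 7.16, and 5.42 CPM (2.77, standard error 0.56, adjusted p = 0.00917). None of the 3 overlapped day 22. All 3 calls were lost without replicate 3 (4.29, 4.25, and 2.96, adjusted p = 0.0734, 0.226, and 0.0676), and without lane as a block 2 members were called, KRT17 and KRT80 (KRT15 adjusted p = 0.227, KRT4 adjusted p = 0.557).

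On LN523 and LN323 the same genes ranged far more widely. KRT15 was at 0.427, 73.7, and 8.91 CPM on LN523 and at 2.88, 144, and 14.1 CPM on LN323 at day 32, and KRT4 was at 0.213, 22.0, and 4.19 CPM and at 0.280, 46.1, and 17.9 CPM. All 4 groups overlapped their day 22 libraries, and the fold changes did not pass (KRT15 1.52 and 2.34, adjusted p = 0.997 and 0.47; KRT4 0.12 and 1.73, adjusted p = 1 and 1, edgeR). Leaving replicate 2 out of the fit gave 3 members on LN523 (KRT15 and KRT17 higher, KRT19 lower), 4 higher on LN323 (KRT13, KRT15, KRT17, and KRT4), and 5 higher on LN521.

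KRT5 and KRT6A, both type II chains of the basal and activated epidermis, were higher in all 3 LN521 libraries of day 32 than at day 22 but did not pass. KRT5 was at 3.28, 8.27, and 0.811 CPM on LN521 (log2 fold change 3.64, standard error 1.00, edgeR adjusted p = 0.129). KRT6A, nearly all of whose transcript is shared with other genes, was at 0.559, 1.61, and 0.0559 CPM, with 80 counts against 2 (ratio 44.2, 95% exact interval 11.8 to 371, edgeR adjusted p = 0.281). The simple keratins had fold changes between -0.57 and 0.34 on the log2 scale for KRT8, KRT18, KRT19, and KRT7 over the 3 matrices, and none passed with all replicates in the fit.

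On LN523 and LN323, replicate 2 carried much of the keratin signal. The summed keratin level at day 32 was 729, 2710, and 1290 TPM on LN523, 1250, 2990, and 1670 TPM on LN323, and 3070, 2710, and 1810 TPM on LN521. On LN523 at day 32, replicate 2 was the highest library for 14 of 14 named keratins, on LN323 for 13 of 14, and on LN521 for 8 of 14, the other 6 being highest in replicate 1. At day 22 the numbers for replicate 2 were 10, 9, and 6 of 14 on LN523, LN323, and LN521. KRT19 at day 32 was at 98.7, 575, and 240 CPM on LN523, at 186, 684, and 352 CPM on LN323, and at 591, 558, and 383 CPM on LN521, so the highest library exceeded the lowest 5.82-fold, 3.68-fold, and 1.54-fold. For KRT10 the 3 replicates of LN523 at day 32 were 11.5, 13.4, and 9.58 CPM.

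Some marker lists moved with these libraries, and others did not. At day 32 the 17 epidermal transcription factors summed to 51.4, 526, and 126 TPM in replicates 1 to 3 of LN523, to 111, 529, and 252 TPM on LN323, and to 572, 652, and 227 TPM on LN521, with none of the 17 at 0 in any group of that day. Mesenchyme and neural crest markers summed to 477, 3940, and 760 TPM on LN523, to 922, 6550, and 2390 TPM on LN323, and to 1300, 667, and 591 TPM on LN521. Amnion and trophoblast markers summed to 181, 569, and 202 TPM on LN523, to 214, 557, and 330 TPM on LN323, and to 789, 569, and 394 TPM on LN521. Of these defining markers, FOXD3 (1 of 8, mesenchyme and neural crest) and CGA (1 of 10, amnion and trophoblast) were at 0 in the LN523 group, and none was at 0 on LN323 or LN521. Replicate 2 was thus also the highest for these lists on LN523 and LN323, and the neural retina progenitor markers were lowest there (877 TPM on LN523, 680 TPM on LN323, and 855 TPM on LN521). Pigment epithelium markers did not peak in replicate 2 on LN523 (1290, 1020, and 931 TPM) or LN323 (1590, 1230, and 845 TPM). On LN521 they did, at 790, 2510, and 1990 TPM. Lens markers were lowest in replicate 2 on LN523 (191, 128, and 228 TPM) and highest there on LN323 (106, 1040, and 310 TPM). On LN521 they were at 14.8, 32.0, and 79.2 TPM. The part of these cell types and of the sequencing lane in the keratin levels was not tested.

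The matrices were then compared within each day. At day 2, 0 members differed between LN523 and LN323 (0.233% of all 38650 genes tested did), and 0 differed between LN523 and LN521 (0.624% of all genes). In each, 1 member had an unadjusted edgeR p under 0.05, as had 921 and 3118 of all genes, and 1 member, KRT14, was called by DESeq2. KRT14 had 0 counts on LN523, 2 counts in 1 library on LN323, and 4 counts in 1 library on LN521 at that day, so those DESeq2 calls rest on single libraries near the floor. Between LN323 and LN521, 1 of 28 members tested, KRT18, was called, where 2.5% of all genes were. KRT18 was at 378, 168, and 383 CPM on LN323 and at 120, 184, and 156 CPM on LN521, so it was higher in 2 of 3 lanes and the groups overlapped. The log2 difference of 0.95 (standard error 0.18, edgeR adjusted p = 7.46e-05) was no longer called without LN323 replicate 1 (0.67, adjusted p = 0.416), without LN323 replicate 3 (0.65, adjusted p = 0.153), or by DESeq2 (adjusted p = 0.0847).

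At day 22, KRT17 was the member that separated LN521 from the other matrices. No member differed between LN523 and LN323 (0.013% of all genes did), where 1 member had an unadjusted edgeR p under 0.05, as had 514 of all genes, and DESeq2 called 0. By contrast, 1 of 36 members tested differed between LN523 and LN521 (0.572% of all genes) and 1 between LN323 and LN521 (0.616% of all genes), KRT17 in both cases. At 12.5 to 32.7 CPM on LN523 and 13.6 to 14.9 CPM on LN323, it did not overlap the 4.50 to 10.6 CPM of LN521 and was higher in 3 of 3 lanes, and both comparisons share the LN521 libraries. The log2 fold changes were 1.61 (standard error 0.27, edgeR adjusted p = 6.44e-05) and 1.13 (0.27, adjusted p = 0.0116).

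These day 22 calls were not firm. With the stricter filter the adjusted p was 0.956 for LN523 and 0.933 for LN323, and without lane as a block it was 0.301 and 0.898. The LN523 call was lost without LN523 replicate 3 (1.49, adjusted p = 0.0861), and the LN323 call without any 1 of its own replicates (0.88, 1.46, and 1.04 without replicates 1, 2, and 3, adjusted p = 1, 0.0592, and 0.467) or LN521 replicate 3 (0.92, adjusted p = 0.167).

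By day 32 KRT17 was lower on LN523 and LN323 than on LN521, although no difference passed the edgeR test. No member was called between LN523 and LN323 (0% of all 39377 genes), between LN523 and LN521 (0.0609% of all genes), or between LN323 and LN521 (0.117% of all genes). At an unadjusted edgeR p under 0.05 there were 1, 11, and 8 of the 42 members tested, against 747, 2034, and 1762 of the 39377 genes. DESeq2 called 5, 5, and 3 members in the 3 comparisons, and its shares of all genes are not given here. Against LN521, the log2 fold change was negative for 13 of the 14 named keratins on both LN523 and LN323 (KRT6A had -0.75 and 0.08), and the median fitted value over the 42 members tested was -1.39 on LN523 and -0.81 on LN323, against -0.03 and -0.05 over all genes. Over the 34 and 35 members selected by counts as above, with those at 0 in a group at their bound, it was -1.06 and -0.63.

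**Figure D4:**
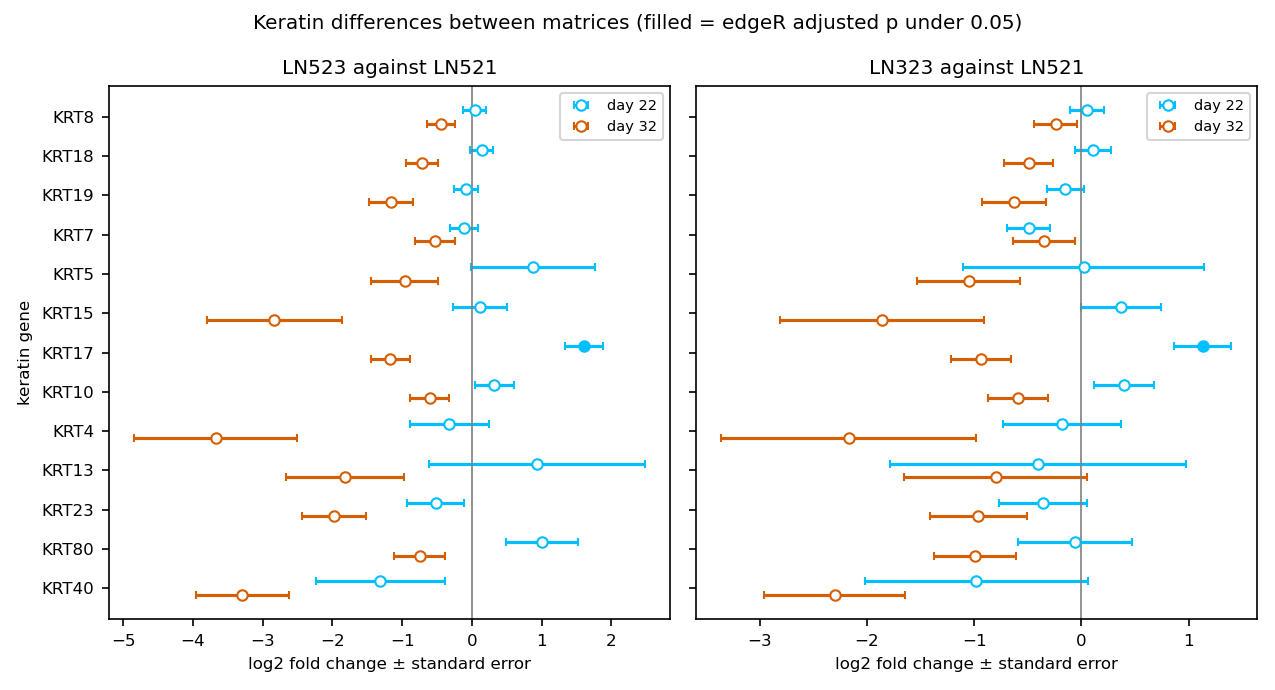
Log2 fold change with its standard error of 13 named keratins on LN523 (left) and LN323 (right) against LN521 at days 22 and 32, with filled points for an edgeR adjusted p under 0.05 and with KRT6A left out for its few counts at day 22. KRT17 at day 22, at 1.61 and 1.13, gives the 2 filled points, and every day 32 point is below 0 and open.

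The largest of these day 32 differences were in KRT4, KRT40, and KRT15. KRT4 had a log2 fold change of -3.67 on LN523 (standard error 1.17, edgeR adjusted p = 0.383) and -2.17 on LN323 (1.19, adjusted p = 1), and KRT15 of -2.83 (0.97, adjusted p = 0.476) and -1.86 (0.95, adjusted p = 1). For KRT15 on LN323 the fit and the means differ in sign, since its mean was 53.6 ± 78.4 CPM on LN323 and 42.1 ± 25.6 CPM on LN521 (SD, n = 3), with replicate 2 alone above LN521. KRT4 and KRT13 were likewise higher on LN323 in 2 of 3 lanes. KRT40, a keratin of the hair cuticle, was lower in 3 of 3 lanes on LN523 (0.128, 1.19, and 0.0921 CPM against 3.26, 6.60, and 0.391 CPM on LN521; -3.29, standard error 0.67, adjusted p = 0.069). KRT17 had -1.17 on LN523 (0.28, adjusted p = 0.162) and -0.94 on LN323 (0.28, adjusted p = 0.374), lower in 3 of 3 lanes with overlapping groups.

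Whether the matrix difference changed between days 22 and 32 was tested directly on the 18 libraries of both days. For LN523 against LN521, 1 of 43 members tested passed (0.00236% of all 42336 genes, the 1 gene called): KRT17, whose difference changed by -2.68 on the log2 scale (standard error 0.43, edgeR adjusted p = 0.0168), from 1.61 at day 22 to -1.17 at day 32 in the fits of each day. For LN323 against LN521, 0 members passed (0% of all genes, and 0 members by DESeq2), and KRT17 had -2.04 (0.43, adjusted p = 0.764). For LN523 against LN323, 0 passed (0% of all genes, and 0 members by DESeq2). At an unadjusted edgeR p under 0.05 there were 3 and 1 members in these 2 comparisons, against 1246 and 587 of all 42336 genes. The KRT17 change was not called without lane as a block (-2.39, adjusted p = 1) or with the stricter filter (-2.70, adjusted p = 0.737), nor without LN521 day 22 replicate 2, LN521 day 32 replicate 1, LN523 day 22 replicate 3, or LN523 day 32 replicates 1 or 3 (-2.66, -2.27, -2.46, -2.32, and -2.69, adjusted p = 0.262, 0.131, 0.21, 0.109, and 0.0768).

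The genes that keratins work with were followed through lists of their known partners. Epidermal transcription factors rose from day 2 to day 22 in 8 of 17 cases on LN523 and LN323 and 9 of 17 on LN521, and 3 of 17 fell on each matrix, where 11.5%, 11.8%, and 10.8% of all genes rose and 10.2%, 10.9%, and 8.09% fell. These shares are also the background of the day 22 counts in the lists that follow. TP63, the master regulator of stratified epithelium, went from 0.105, 0.123, and 0.13 CPM on LN523, LN323, and LN521 to 26.6, 27.6, and 43.0 CPM, by log2 fold changes of 7.95, 7.97, and 8.72 (edgeR adjusted p = 7.45e-15, 2.47e-15, and 2.47e-16). KLF5, which is needed in basal epithelium, rose by 2.85, 3.80, and 3.73, while the splicing regulators ESRP1 and ESRP2 and the repressor OVOL2 fell on each matrix. From day 22 to day 32, 0 of 17 were called on any matrix. Of all genes, 0.343%, 0.0357%, and 0.196% rose and 0.0379%, 0.00669%, and 0.0713% fell on LN523, LN323, and LN521. At such shares, 0 of 17 does not show that the list was stable. The same shares are the background of the calls from day 22 to day 32 in the lists that follow.

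Desmosome and plakin genes, to which keratin filaments attach, rose in 7, 8, and 8 of 16 cases and fell in 2, 2, and 1 on LN523, LN323, and LN521 by day 22. The desmocollin DSC3 rose by 4.10, 3.67, and 3.88 and the linker DSP by 1.40, 1.11, and 1.02, whereas PKP1, a plakophilin of the suprabasal layers, fell by 2.99, 2.48, and 1.92 on the log2 scale on the 3 matrices. EVPL, a plakin of the cornified envelope, fell by 1.87 on LN523 and 2.44 on LN323 (adjusted p = 0.0253 and 0.00264). By day 32 PKP1 had risen again on LN523 (3.16, edgeR adjusted p = 0.00823) and LN521 (3.11, adjusted p = 0.0116). Of 6 hemidesmosome genes, which hold the basal cell to laminin, 3 rose and 1 fell on each matrix: COL17A1 rose by 4.89, 4.34, and 5.46 and ITGB4 by 2.62, 2.58, and 2.54, and ITGA6, the partner of ITGB4, fell by 1.66, 1.54, and 1.18 on the log2 scale.

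The genes of the cornified layer stayed low. Of 15 in the table, 1, 2, and 1 rose and 2 fell on each matrix by day 22, and their summed level was 29.8 to 65.4 TPM at day 2, 11.4 to 27.0 TPM at day 22, and 9.47 to 49.6 TPM at day 32. SPRR1B, a cornified envelope precursor, was the 1 gene of the list called from day 22 to day 32, on LN521, where its mean went from 0.0158 to 1.39 CPM (edgeR adjusted p = 0.0281). CASP14 and CDSN, markers of the cornified cell, were at 0 in all 9 libraries of day 22.

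Of 12 other cytoplasmic intermediate filament genes, 4 rose and 4 fell on LN523 and on LN323 by day 22, and 2 rose and 2 fell on LN521. VIM, the filament of mesenchymal and retinal progenitor cells, rose by 2.88, 3.80, and 2.96 from day 2 to day 22 on LN523, LN323, and LN521 (edgeR adjusted p = 1.36e-07, 4.91e-10, and 1.04e-07), and NES, the filament of neural progenitors, fell by 1.35, 1.60, and 1.40 on the log2 scale. The neurofilament gene NEFL fell on LN523 and LN323 by 3.51 and 2.68 on the log2 scale (adjusted p = 5.09e-05 and 0.000964) and was at 0.64 on LN521 (adjusted p = 0.63). Set against LN521 at day 22, NEFL and NEFM had log2 fold changes of -3.99 and -4.38 on LN523 and were lower in 3 of 3 lanes (edgeR adjusted p = 1.07e-08 and 1.47e-08). The LN521 means, 98.2 ± 132 CPM for NEFL and 53.0 ± 72.4 CPM for NEFM (SD, n = 3), had a spread above the mean. PRPH, the filament of peripheral neurons, rose by 5.99, 7.63, and 3.26 by day 22 on LN523, LN323, and LN521. Set against LN521 at day 22, PRPH was higher by 1.64 on LN523 and 2.23 on LN323 (edgeR adjusted p = 0.00174 and 2.03e-06). At day 32 it was higher by 1.82 and 1.77 (adjusted p = 0.00353 and 0.00289).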

How the data were processed

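RNA had been extracted from 27 samples of H1 cells, and libraries were made with a stranded total RNA kit and read as 150 base pairs from both ends. The authors trimmed with cutadapt (per the labels), aligned to GRCh38 with STAR 2.5.2b, and counted reads per gene with featureCounts 1.5.1. The deposited gene counts are whole numbers without ribosomal and mitochondrial genes, and the deposited TPM values, made by the authors, were used only to compare levels between genes and to sum lists.

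Counts were tested with edgeR 4.0.16 (quasi-likelihood, TMM) over every gene whose counts summed to more than 1, with lane as a replicate block after the study's model, with Benjamini-Hochberg adjustment over those genes and a threshold of 0.05. Days were compared in 1 fit of 27 libraries, matrices within the 9 libraries of a day, and the change of a matrix difference in 18 libraries, which gave 18 comparisons. The pairing comes from the lane in the sample titles, which the labels share across groups. Same-lane deviations from the group means correlated over 16366 genes, which are not independent, at r = 0.662, 0.638, and 0.573 for LN523 and LN323 at day 32, but at -0.208, 0.323, and 0.311 for LN523 and LN521 and -0.273, 0.122, and 0.137 for LN323 and LN521, and at day 2 at 0.0645, -0.459, and -0.374 for LN523 and LN323. RLE scaling, the filterByExpr filter, DESeq2 1.42.0 (R 4.3.3), no block, only the groups compared, and left-out libraries were tried as alternatives, and the fits were tested on simulated counts.

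Symbols came from GENCODE 44, which matched 43052 of 44852 rows, and shared stretches from BLAST 2.17.0. Named keratins are those with a group mean of at least 1 CPM, and up to 4 partner genes per list were ranked for naming, others being chosen after their values were seen. The members and lists were chosen with earlier results of these data known. Bounds take 3 counts over a group as the floor. All intervals are 95% and cover counting error only.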

Additional observations from a re-analysis of the deposited data

Results flagged for a closer look

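One result differed between groups under the same contrast. The difference of KRT17 between LN523 and LN521 changed by -2.68 on the log2 scale from day 22 to day 32 (standard error 0.43, edgeR adjusted p = 0.0168): KRT17 was higher on LN523 than on LN521 in 3 of 3 lanes at day 22 and lower in 3 of 3 lanes at day 32. Its adjusted p ran from 0.000902 to 1 over all alternatives.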

How the results depend on the processing

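All keratin calls kept their direction under every alternative run, and none reversed. With the stricter filterByExpr filter, 0 members were called from day 22 to day 32 on LN523, 1 on LN521, 0 between LN323 and LN521 at day 2, 0 between LN521 and either other matrix at day 22, and 0 for the change of the LN523 to LN521 difference. Without the replicate block, which the main design has, 2 members were called from day 22 to day 32 on LN521, 0 between LN521 and either other matrix at day 22, and 0 for that change. No other count of calls moved by over 1.5 times without the block. With only the groups compared, 7 members were called from day 22 to day 32 on LN323 and 9 on LN521, 0 between LN521 and either other matrix at day 22, and, at day 32, 4 between LN523 and LN323 and 1 between LN523 and LN521. DESeq2 called 1 between LN523 and LN323 and 1 between LN523 and LN521 at day 2, 0 between LN323 and LN521 at day 2, and 5, 5, and 3 for LN523 and LN323, LN523 and LN521, and LN323 and LN521 at day 32. RLE scaling moved none of these counts. The shares of all genes called under these alternatives are not given here. The cause of these shifts was not tested. Among single keratins, the calls also lost were, with only the groups compared, KRT5 from day 2 to day 22 on LN523 (adjusted p = 0.0563) and LN323 (0.354) and KRT80 on LN323 (0.183), with the stricter filter KRT5 on LN323 (0.0862) and KRT15, KRT4, and KRT80 from day 22 to day 32 on LN521 (0.178, 0.307, and 0.0936), and with DESeq2 KRT4 there (0.257). When a lane was left out of the time comparisons, the calls from day 2 to day 22 were 8 to 11 on LN523, 5 to 10 on LN323, and 8 to 11 on LN521, and from day 22 to day 32 they were 1 to 3, 1 to 4, and 1 to 7. When single libraries were left out of the matrix comparisons, the calls at day 2 were 0 to 1 (LN523 and LN323), 0 to 1 (LN523 and LN521), and 0 to 2 (LN323 and LN521). At day 22 they were 0 to 0, 0 to 2, and 0 to 2, at day 32 0 to 0, 0 to 4, and 0 to 2, and for the change between the days 0 to 0, 0 to 1, and 0 to 1. Leaving out single libraries was not run for the time comparisons. Depth limits the 32 keratins of low level, 11 of which had counts in 3 or fewer libraries, so their absence from the calls says only that no change was detectable.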
